A study of Mus musculus with 12 samples.

Results

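The cytochrome P450, aldehyde dehydrogenase, glutathione transferase, glucuronosyltransferase and sulfotransferase genes of the mouse were followed across the stomach and the colon and across 3 Spdef genotypes. Members were all genes of the array's annotation whose symbol begins with Cyp and a digit, Aldh and a digit, Gsta, Gstm, Gstp, Gstt, Gsto, Ugt1, Ugt2, or Sult and a digit, with 1 gene left out. They came to 110 of the 11807 genes on the arrays, each read by its brightest probe set (highest mean over the 12 arrays). The P450 genes were split into 36 of the Cyp1, Cyp2 and Cyp3 families, 10 of Cyp4 and 14 with a higher family number. The other members were 17 Aldh, 15 Gst, 8 Ugt and 10 Sult genes.

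RNA of whole flash-frozen tissue was hybridised to Affymetrix mouse arrays, on which a set of short probes reads each transcript. There were 6 groups with 2 arrays each: stomach of Spdef KO (knockout), HET (heterozygous) and WT (wild type) mice, and colon of the same genotypes. Spdef is an ETS transcription factor known from mucus-secreting cells. Strain C57BL/6 and an age of 16 weeks are given for every mouse, no treatment was applied, and neither the sex, the design of the targeted allele nor the number of mice behind a sample is stated. P-values therefore measure only the spread between these samples, which may be technical. Levels are log2(intensity + 16) after quantile normalization, a scale that understates changes of dim genes, and the number of arrays limits the precision. In whole tissue, fewer cells of a type and less RNA per cell cannot be told apart.

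These families clear foreign chemicals and many of the body's own steroids, bile acids, retinoids and lipids. P450 enzymes of the first 3 families oxidise drugs and other foreign compounds, Cyp4 enzymes hydroxylate fatty acids and eicosanoids, and most P450s of higher number act on sterols, bile acids, steroid hormones, vitamin D or retinoic acid. Aldehyde dehydrogenases oxidise the aldehydes formed on the way, and glutathione transferases, UDP-glucuronosyltransferases and sulfotransferases attach glutathione, glucuronic acid or sulfate, which makes products easier to excrete. In the gut wall these enzymes meet food, microbial products and swallowed drugs before the liver does.

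Promoter stretches of 4 members that differed between the tissues are shown because they hold a core motif of a factor that governs such genes elsewhere. The letters are from RefSeq on GRCm38.p6, 5′ to 3′ on the strand of the gene, with the motif in capitals. The motifs searched on both strands were GCGTG, the core bound by the dioxin receptor Ahr with Arnt, TGACNNNGC, the core of the antioxidant response element, and TTTATNG, a core bound by intestinal CDX factors. No 2 of them overlapped in the stretches shown. The same search also found GCGTG at Cyp4f14, Sult2b1 and Sult1b1 and TGACNNNGC at Cyp4f14. These genes were lower in stomach, and their stretches are not shown. Cyp2c55 lies on the + strand and the window is chr19:39006769-39006888. Gsta2 (chr9:78347146-78347265), Cyp1b1 (chr17:79715078-79715197) and Gstm7 (chr3:107931684-107931803) lie on the - strand.
Cyp2c55: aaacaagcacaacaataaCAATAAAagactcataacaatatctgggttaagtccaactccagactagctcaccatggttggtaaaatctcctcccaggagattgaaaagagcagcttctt
Gsta2: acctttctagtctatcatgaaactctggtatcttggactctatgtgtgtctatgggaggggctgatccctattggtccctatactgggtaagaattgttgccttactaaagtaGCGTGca
Cyp1b1: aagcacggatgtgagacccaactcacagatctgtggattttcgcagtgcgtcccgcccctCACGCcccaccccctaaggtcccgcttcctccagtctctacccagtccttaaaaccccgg
Gstm7: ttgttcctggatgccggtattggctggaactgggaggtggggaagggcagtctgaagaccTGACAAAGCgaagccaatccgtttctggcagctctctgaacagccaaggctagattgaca
Among 104 promoters of the 87 members with an entry, the 250 bases before the start held GCGTG in 24.0% of cases, TGACNNNGC in 6.73% and TTTATNG in 9.62%. Among all 32851 promoters the shares were 28.2%, 10.2% and 9.81%. In the 23 promoters of members called higher in stomach they were 21.7%, 8.7% and 13.0%. In the 26 of members called lower they were 19.2%, 3.85% and 3.85%, and the difference was not tested. A match describes the letters only.

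Dim genes were set aside before testing. The level required was the 40th percentile of an array, 6.53, and a gene entered the test of a tissue if at least 2 of the 6 arrays reached it. Of the 110 members, 57 passed in stomach, 56 in colon and 47 in both, which made 66 tested in at least 1 tissue. The 15 Gst genes and 16 of the 17 Aldh genes passed, against 17 of 36 Cyp1 to Cyp3 genes, 6 of 10 Cyp4 genes, 3 of 14 P450s of higher number, 5 of 8 Ugt and 4 of 10 Sult genes. Among the 44 members not tested, 35 lay below the level on all 12 arrays and 9 reached it on no more than 1 array of a tissue. They included Cyp1a1 and Cyp1a2, the classical targets of the dioxin receptor, whose highest array read 5.57 and 5.82 in stomach and 5.16 and 4.80 in colon. The adrenal and gonadal enzymes Cyp11a1 and Cyp17a1 and the bile acid enzyme Cyp8b1 were among those below the level on every array, with highest readings of 5.28, 4.79 and 5.82. Cyp7a1, the rate-limiting enzyme of bile acid synthesis, exceeded the level on 1 stomach array, at 6.86.

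The tissue labels were checked against marker genes. Mean levels of the parietal cell list lay between 12.07 and 12.48 on the stomach arrays and between 4.76 and 5.12 on the colon arrays. The colonocyte list ran between 5.43 and 5.79 in stomach and between 12.45 and 13.40 on 5 colon arrays, and it was 9.65 on the array labelled colon WT 2. On that array the small intestine list averaged 12.48, against 7.90 to 8.87 in stomach and 5.65 to 7.04 on the remaining colon arrays. Its mean correlation with the other colon arrays was 0.726 over the 56 tested members and 0.875 over all tested genes, against 0.830 to 0.917 and 0.923 to 0.951 for the others. Where the tissue difference of a member named below moved by over 0.3 log2 units or lost or gained its call without that array, the value without it is given, unless both means lay below the filter level described above. Spdef read 8.86 and 8.63 in stomach KO, 9.06 and 8.94 in HET and 9.19 and 8.96 in WT, and in colon 9.08 and 9.25 in KO, 10.27 and 9.81 in HET and 10.97 and 8.74 in WT. No Spdef comparison between genotypes passed the threshold, and where the probe set lies relative to the targeted part of the gene is not known here.

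Stomach and colon differed in the levels of many of these enzymes, and 47 of the 66 tested members passed the filter in both. Averaged over the genotypes, 46 of the 66 tested members (69.7%) passed limma's threshold of an adjusted p under 0.05. Of these, 22 were higher and 24 lower in stomach. Over the 8393 genes tested, 48.8% passed (27.3% higher, 21.4% lower). Among the 66, 10 passed the filter in stomach only and 9 in colon only. Over all genes 7858 passed in stomach and 7913 in colon. A gene that passed in 1 tissue only entered through its brighter tissue, so the filter favours calls among such genes. Its part in the 2 shares was not tested. With no filter, 53 of 110 members and 35.7% of 11807 genes were called. On 28 of the 46 the 6 stomach arrays did not overlap the 6 colon arrays, 15 with stomach above and 13 with it below. A difference of at least 1 log2 unit was reached by 17 of the higher and 14 of the lower members, or by 13 and 13 when readings under the filter level were raised to it. For non-overlap and for differences of this size no share over all genes is given, so these counts describe the members only. The median absolute difference was 1.003 over the members and 0.368 over all tested genes (0.828 and 0.318 with raised readings), while the medians of the signed differences were 0.10 and 0.05. Glutathione transferases were mostly higher in stomach, with 10 of 15 higher and 1 lower. The Cyp1 to Cyp3 genes divided into 5 higher and 8 lower of 17, the Cyp4 genes into 1 higher and 4 lower of 6, and the Aldh genes into 4 and 4 of 16. Conjugating Ugt and Sult genes each had 1 higher and 3 lower, of 5 and 4 tested. Without quantile normalization or with offsets of 1 or 64, the counts of Gst, Aldh, Cyp4 and Sult were the same, and Cyp1 to Cyp3 had 4 to 6 higher and Ugt 2 or 3 lower. Where the mean of 1 tissue fell below the filter level, the tissue fold is given only as a lower bound (at least N-fold) taken against that level, with the p of the fit. Of the 46 calls, 35 held under every alternative in which the member was tested.

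**Figure D1:**
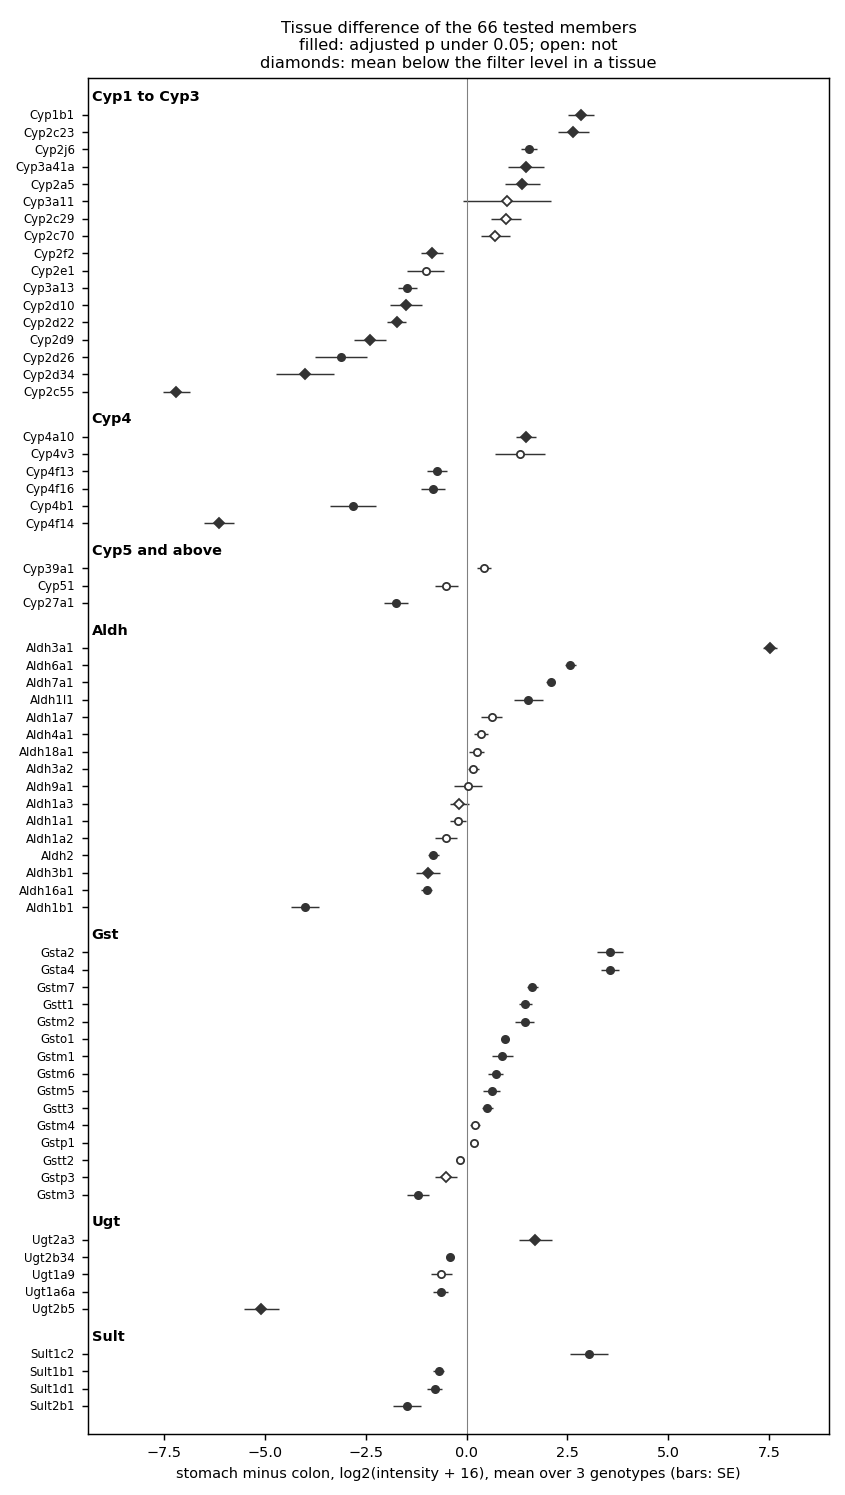
Difference between stomach and colon for each of the 66 tested members, by family. Points are the stomach minus colon log2 difference averaged over the 3 genotypes, bars its SE, filled points have an adjusted p under 0.05 (limma), and diamonds mark members whose mean fell below the filter level in at least 1 tissue, for which the plotted difference is not a measured fold. Aldh3a1 lies farthest right and Cyp2c55 farthest left.

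Aldh3a1, which oxidises aromatic and medium-chain aldehydes and is known from the cornea and the stomach, was far higher in stomach. Its stomach arrays read 11.31 at the lowest, 12.06 at the median and 12.19 at the highest, against 4.08, 4.25 and 5.27 in colon. All colon arrays lay below the filter level, so stomach was at least 41.7-fold higher (gene on chromosome 11, limma adjusted p = 1.68e-09). Aldh6a1, the mitochondrial enzyme of valine breakdown, ran between 12.28 and 12.68 in stomach with a median of 12.45, against 9.33 to 10.24 with a median of 9.99 in colon. The difference was 2.58 (SE 0.14, limma adjusted p = 8.13e-07), a 5.97-fold higher level in stomach. Aldh7a1, which acts in lysine breakdown, was 2.09 higher (SE 0.12), with stomach arrays between 9.67 and 10.11 and colon arrays between 7.64 and 8.07. These 3 genes did not overlap between the tissues on any array. The folate enzyme Aldh1l1 also rose in stomach (1.54, SE 0.35, and 1.86 without colon WT 2), although that array, at 10.44, read within the stomach range of 10.15 to 10.55.

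Aldh1b1, a mitochondrial enzyme that oxidises acetaldehyde, went the other way. Stomach arrays lay between 6.27 and 6.91 with a median of 6.77, while colon arrays lay between 9.38 and 12.22 with a median of 10.50. The difference was -4.00 (SE 0.35, limma adjusted p = 1.52e-05), so stomach was 16.0-fold lower and no array overlapped. Without colon WT 2 it was -3.69. The other main acetaldehyde enzyme, Aldh2, fell by 0.82 in stomach (SE 0.13), with 11.01 to 11.67 in stomach against 11.84 to 12.42 in colon. Aldh16a1 was lower by a difference of -0.99 (SE 0.13). Aldh3b1, which acts on lipid aldehydes, was at least 1.15-fold lower (adjusted p = 0.0216), its stomach mean lying below the filter level. It lost its call without stomach KO 2 (adjusted p = 0.0526), colon HET 2 (0.0581) or colon KO 1 (0.0501). The retinaldehyde dehydrogenases showed no called difference: Aldh1a1 read a median of 12.61 in stomach and 13.09 in colon (difference -0.22, SE 0.20, adjusted p = 0.401), and Aldh1a2 and Aldh1a3 had adjusted p = 0.139 and 0.553.

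Among the glutathione transferases the alpha class stood at the top of the list. Gsta2 read 13.57, 13.64 and 13.70 at the lowest, median and highest stomach array, against 8.70, 10.10 and 11.39 in colon. Gsta4, which conjugates the lipid peroxidation product 4-hydroxynonenal, read 13.71, 13.83 and 13.87 in stomach, against 9.18, 10.33 and 10.88 in colon. Both differences were 3.55 (SE 0.32 for Gsta2 and 0.23 for Gsta4, limma adjusted p = 2.02e-05 and 2.12e-06), or 11.7-fold higher in stomach. For both genes the stomach arrays lay close together, the colon arrays spread widely, and the tissues did not overlap. Gsta2 was read by a probe set that can also bind close relatives, so its signal is not assigned to that gene alone. Theta-class Gstt1 (difference 1.46, SE 0.16), which conjugates small halogenated compounds, and Gstt3 (0.52, SE 0.14) were higher too. Omega-class Gsto1, a thiol transferase, was higher by 0.96 with the smallest SE among the called members, 0.07.

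The mu-class genes all lie on chromosome 3 and did not move as one. Gstm7 was higher in stomach, with 8.38 to 8.90 against 6.54 to 7.17 in colon (difference 1.63, SE 0.14, limma adjusted p = 1.30e-05). Gstm2 (1.44, SE 0.23, and 1.17 without colon WT 2), Gstm1 (0.89, SE 0.26), Gstm6 (0.73, SE 0.18) and Gstm5 (0.62, SE 0.21) were higher as well. Gstm3 was the 1 member of the family that was lower, at 7.54 to 9.10 in stomach against 8.78 to 10.001 in colon (difference -1.20, SE 0.27), and the Gstm4 difference of 0.21 was not called. Gstm1 had 0.59 without colon WT 2, where it read 9.37 against 10.67 to 11.19 on the other colon arrays, and it lost its call without stomach HET 2, stomach KO 1 or colon HET 1 (adjusted p between 0.0501 and 0.0589). Gstm5 lost its call under 8 of 24 alternatives (adjusted p between 0.0537 and 0.0930). A second probe set of Gstm3 gave -0.47 with adjusted p = 0.108. Other probe sets of Gstm1 gave 0.91 (limma adjusted p = 0.0196), 0.61 (0.0738) and 0.43 (0.0875). Gstm1 and Gstm3 were read by probe sets that can also bind close relatives, so their signal is not assigned to those genes alone. Pi-class Gstp1, bright in both tissues at 13.24 to 13.50 in stomach and 12.84 to 13.36 in colon, differed by 0.18 (SE 0.09, adjusted p = 0.143).

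The P450s that oxidise foreign compounds and arachidonic acid divided between the organs. Cyp2c55, a colon-rich arachidonic acid hydroxylase, read 5.73, 6.23 and 6.63 at the lowest, median and highest stomach array, against 11.83, 13.90 and 13.93 in colon. Stomach was at least 118-fold lower (limma adjusted p = 2.38e-07), and at least 147-fold without colon WT 2, the lowest colon array. Cyp2c23, an epoxygenase whose gene is also on chromosome 19, was at least 3.87-fold higher in stomach. It read 8.39 to 8.92 there, against 5.25 to 7.91 in colon. Its probe set can also bind close relatives, so the signal is not assigned to Cyp2c23 alone. Cyp1b1, which oxidises oestradiol and polycyclic aromatic hydrocarbons, read 7.94 to 8.70 in stomach against 4.18 to 7.21 in colon. By this probe set it was at least 3.22-fold higher, while a dimmer second set gave a difference of 1.20 (limma adjusted p = 0.0069). The highest colon array of both Cyp2c23 and Cyp1b1 was colon WT 2, and without it they were at least 4.54-fold and 3.49-fold higher. Cyp2j6 was higher by 1.56 (SE 0.20), with 10.67 to 10.90 in stomach against 8.76 to 10.04 in colon. The arrays did not overlap for any of these 4 genes.

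All 5 tested genes of the Cyp2d cluster on chromosome 15 were lower in stomach. Cyp2d22 was at least 2.24-fold lower, with 5.38 to 6.51 in stomach against 6.88 to 8.29 in colon and no overlap. A second Cyp2d22 probe set of similar brightness gave a smaller difference of -0.89 (limma adjusted p = 0.0095). Cyp2d34 read 4.68 to 5.71 in stomach, against 9.84 to 9.97 on 5 colon arrays and 4.68 on colon WT 2. All its stomach arrays lay below the filter level, and stomach was at least 5.70-fold lower with colon WT 2 (adjusted p = 0.00159) and at least 10.4-fold lower without it. Cyp2d9 (at least 1.67-fold lower, and 2.13-fold without colon WT 2) and Cyp2d10 (at least 2.16-fold, and 2.95-fold without it) behaved alike, with colon WT 2 at 5.49 and 5.40 below every other colon array. Without the 3 arrays that carry an RMA note, Cyp2d10 was not called (adjusted p = 0.0820). Cyp2d26 fell by 3.12 (SE 0.65, and by 2.70 without colon WT 2), with a stomach range of 5.06 to 7.22 and a wide colon range of 7.14 to 11.73. Near-identical copies make the split of signal among Cyp2d genes uncertain.

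Cyp3a13, an intestinal enzyme of the drug-oxidising Cyp3a group, was lower in stomach by a difference of -1.47 (SE 0.24), with 10.53 to 10.97 against 11.05 to 12.65 in colon. Cyp3a11, the main Cyp3a enzyme of the liver, read 5.62 to 9.51 in stomach, 4.80 to 5.68 on 5 colon arrays and 12.07 on colon WT 2. With all arrays it was not called (adjusted p = 0.475), and without colon WT 2 the stomach mean was at least 1.71-fold higher. That mean rests on the 3 stomach arrays that reached the filter level. Both KO arrays (5.97 and 5.62) and HET 1 (6.04) lay below it, and KO 2 lay within the range of the other colon arrays. Cyp2f2, which oxidises naphthalene in the airway, was called lower (adjusted p = 0.0244), but with a stomach mean below the filter level and a colon mean just above it (5.77 and 6.63) no fold is given. The sign turned without the RMA-note arrays, which include both stomach KO arrays. It also lost its call without any of 6 single arrays (adjusted p between 0.0510 and 0.0669). Cyp2a5 and Cyp3a41a were called higher, but their means lay below the filter level in both tissues and no fold is given. Cyp2e1, the ethanol-oxidising P450, ran between 7.36 and 10.16 in stomach and between 6.65 and 11.06 in colon and was not called (difference -1.01, SE 0.45, adjusted p = 0.0904).

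**Figure D2:**
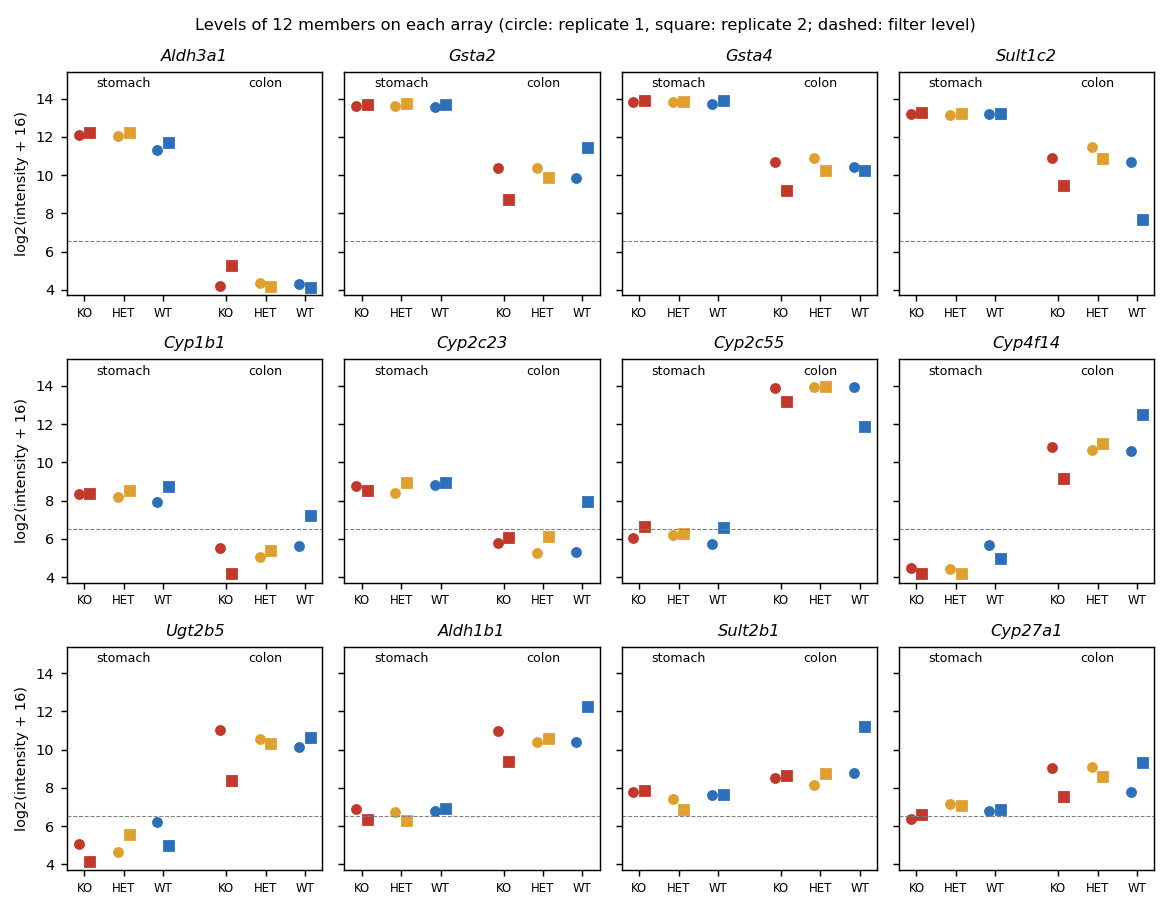
Levels of 12 members on each array as log2(intensity + 16), stomach on the left and colon on the right of each panel, KO, HET and WT in order, replicate 1 as circles and replicate 2 as squares; the dashed line is the filter level of 6.53. Gsta2, Gsta4 and Sult1c2 are tight in stomach and spread in colon, and colon WT 2 lies apart for Sult1c2, Sult2b1, Cyp2c55 and Cyp4f14.

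Of the 6 tested Cyp4 genes, 4 were called lower in stomach and 1 higher. Cyp4v3, with a difference of 1.32, was not called, and without colon WT 2 its difference was 2.03. Cyp4f14, which hydroxylates leukotriene B4, read 4.15 to 5.65 in stomach with a median of 4.46, against 9.13 to 12.50 in colon with a median of 10.71. Stomach was at least 18.9-fold lower (limma adjusted p = 1.30e-06), with no overlap, and at least 14.9-fold lower without colon WT 2, the highest colon array. Cyp4b1, known from lung and other epithelia, had -2.82 (SE 0.58), with 6.62 to 7.30 in stomach, 9.62 to 10.66 on 5 colon arrays and 6.51 on colon KO 2. Cyp4f13 (-0.73) and Cyp4f16 (-0.83) passed with overlap between the arrays, and these calls were the least stable. Without colon WT 2 Cyp4f13 had -0.57 (adjusted p = 0.0600) and Cyp4f16 -0.50 (adjusted p = 0.0128). Cyp4f13 lost its call under 11 of 24 alternatives (adjusted p up to 0.0904) and Cyp4f16 under 10 (up to 0.105). Cyp4a10, a fatty acid omega-hydroxylase, was called higher in stomach (5.89 to 6.99 against 4.69 to 5.39 in colon) with both means below the filter level. Among the sterol P450s, Cyp27a1, which opens a route of bile acid synthesis by hydroxylating cholesterol, was lower by a difference of -1.75 (SE 0.31), with 6.39 to 7.14 in stomach against 7.54 to 9.29 in colon. The oxysterol enzyme Cyp39a1 (0.43, adjusted p = 0.0712) and the cholesterol synthesis enzyme Cyp51 (-0.50, adjusted p = 0.163) were not called.

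Ugt2b5 stood out among the glucuronosyltransferases. It read 4.10 to 6.20 in stomach with a median of 5.002, against 8.35 to 11.05 in colon with a median of 10.42, and was at least 12.4-fold lower in stomach (limma adjusted p = 1.62e-05). Ugt2b34 had a small difference of -0.41 (SE 0.09) without overlap, with 12.27 to 12.56 in stomach against 12.56 to 13.00 in colon. Its probe set can also bind close relatives, so the signal is not assigned to Ugt2b34 alone. The phenol-conjugating Ugt1a6a was lower too (-0.65, SE 0.18, adjusted p = 0.0157), though not called without quantile normalization (adjusted p = 0.0512) or without the RMA-note arrays (0.0559). Ugt1a9 had -0.62 (SE 0.27, adjusted p = 0.0827) and was called without colon WT 2 (-0.86, adjusted p = 0.00608). Genes of the Ugt1a cluster share their last exons, so their probe sets need not separate them. Ugt2a3 was called higher in stomach with both means below the filter level.

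Sult1c2 was the 1 sulfotransferase that was higher in stomach. Its stomach arrays lay between 13.17 and 13.26, and its colon arrays read 7.63 at the lowest, 10.76 at the median and 11.47 at the highest. The difference was 3.04 (SE 0.46, limma adjusted p = 5.65e-04), or 8.22-fold, and it was 2.53 without colon WT 2, the lowest colon array. Sult2b1, which sulfates cholesterol, had -1.48 (SE 0.35), with 6.84 to 7.84 in stomach, 8.13 to 8.80 on 5 colon arrays and 11.18 on colon WT 2. Without colon WT 2 the Sult2b1 value was -1.08, and without the RMA-note arrays, where colon WT 2 is the 1 WT array left in colon, it was -2.44. Sult1b1, which acts on phenols and thyroid hormones, was lower by a difference of -0.70 (SE 0.13) without overlap, and Sult1d1, which acts on catecholamines, had -0.78 (SE 0.19) with overlap and lost its call without the RMA-note arrays (-0.68, adjusted p = 0.0621).

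The tissue difference was also fitted within each genotype, where 2 arrays stand against 2. In KO mice 23 members passed (12 higher, 11 lower in stomach; 22.9% of all genes passed, 12.4% higher and 10.5% lower), in HET mice 26 (15 and 11; 22.2%, 12% higher and 10.3% lower) and in WT mice 31 (16 and 15; 27.3%, 16.4% higher and 10.9% lower). In all 3 genotypes 18 members were called (27.3% of 66, beside 14.5% of 8393 genes). They were Aldh3a1, Aldh6a1, Aldh7a1, Cyp1b1, Cyp2c23, Cyp2j6, Gsta2, Gsta4, Gstm7, Gsto1 and Gstt1 on the higher side, and Aldh1b1, Aldh16a1, Cyp27a1, Cyp2c55, Cyp2d22, Cyp4f14 and Ugt2b5 on the lower side. The 3 counts were not tested against each other. Leaving out single arrays, which leaves 1 array in a group, moved both these counts and the share of all genes called.

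Genes that work beside these families were read from 9 lists, of electron donors, receptors, glutathione and quinone defence, other oxidases and hydrolases, cofactor supply, other conjugation, efflux pumps, and steroid and retinoid metabolism. Of 89 listed genes 73 were on the arrays and 61 were tested, and 21 were higher and 15 lower in stomach, beside the 48.8% of all genes called (27.3% higher, 21.4% lower). In glutathione and quinone defence 7 of 13 were higher and 2 lower. Nqo1, the quinone reductase, read 12.31 to 12.58 in stomach against 7.80 to 9.37 in colon (difference 3.80, SE 0.24). Adh7, the gastric alcohol dehydrogenase, was at least 12.2-fold higher, with 9.92 to 10.40 in stomach against 5.38 to 6.01 in colon. The carbonyl reductase Cbr3 had 3.62 (SE 0.21), and the retinol dehydrogenase Rdh7 was at least 7.87-fold higher, with 4.14 to 4.88 on 5 colon arrays and 9.32 on colon WT 2 (at least 10.9-fold without that array). Each of these 4 genes kept its stomach arrays above its colon arrays.

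On the lower side stood the efflux pumps Abcb1a and Abcg2, which return drugs to the lumen. Abcb1a read 5.40 to 5.88 in stomach against 10.87 to 13.47 in colon and was at least 61.3-fold lower. Abcg2 had -3.54 (SE 0.25), with 7.52 to 7.94 in stomach against 10.74 to 12.62 in colon. Hsd11b2, which inactivates glucocorticoids, was at least 13.3-fold lower, and the bile acid receptor Nr1h4 had -3.39 (SE 0.28). Of the receptors that govern the member families, the oxidative stress factor Nfe2l2 was higher in stomach (0.91, SE 0.16) and Hnf4a lower (-1.58, SE 0.12), while Ahr and the pregnane X receptor gene Nr1i2 were not called. The choice of Hnf4a, Nfe2l2, Ahr and Nr1i2 was made with their values in view. No gene of the 9 lists passed in any genotype comparison of either tissue or in either interaction.

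The array labelled colon WT 2 stood apart in these enzymes more than in genes at large. On 16 of the 56 colon-tested members (28.6%) it lay over 1 log2 unit outside the range of the other 5 colon arrays, 8 above and 8 below, beside 5.88% of 7913 genes. Among the 8 above, the fatty acid P450 Cyp4v3 read 11.75 against 7.31 to 8.71 and Aldh9a1 11.88 against 9.21 to 9.49. Members that reached the filter level on colon WT 2 alone among the colon arrays are not among the 56. Of these, the drug-oxidising Cyp3a11 and Cyp3a25 read 12.07 and 12.02 on it, against 4.80 to 5.68 and 4.14 to 5.86 on the others. Cyp3a44, likewise not among the 56, read 8.30 against 4.76 to 5.52. In the other direction Cyp2d34, Cyp2d10 and Cyp2d9 were low there, as were Sult1c2, Gstm2 (8.80 against 10.25 to 10.40) and Gstm1. The small intestine list, whose 6 genes on the arrays all exceeded the filter level there, moved with these members, and its part in them was not tested. Without that array 51 members were called between the tissues (52.3% of all genes were), 27 higher and 24 lower in stomach, and 45 of them were also called with it. Cyp4v3 (2.03) and Aldh1a7 (0.92) were then called higher, and Aldh9a1 (0.46) as well.

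**Figure D3:**
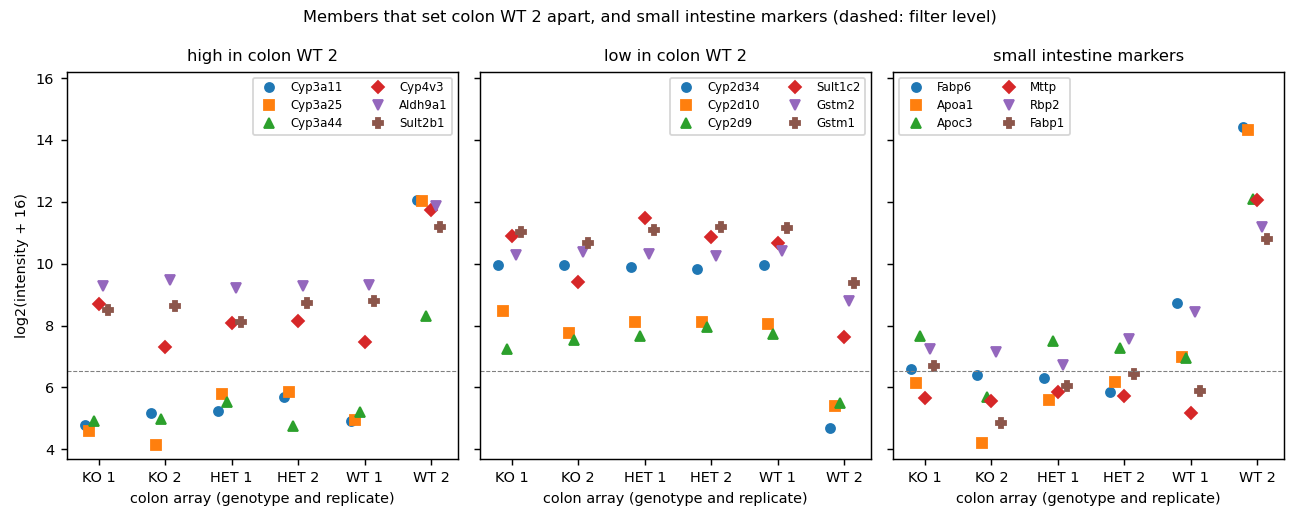
Levels on the 6 colon arrays, as log2(intensity + 16), of members high on colon WT 2 (left), members low on it (middle) and small intestine markers (right), with the filter level of 6.53 dashed. Cyp3a11 and Cyp3a25 reach 12.07 and 12.02 on colon WT 2 and stay below the line on the other colon arrays, and Cyp2d34 falls to 4.68.

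The first genotype question was what loss of Spdef did to these enzymes in the stomach. None of the 57 stomach-tested members passed in KO against WT, where limma called 0.0127% of 7858 genes, and 4 members (7.02%) had an unadjusted p under 0.05, against 3.56% of all genes. These 4 were Cyp2c29, Cyp2e1, Cyp2a5 and Cyp3a41a, all P450s abundant in liver, of which Cyp3a41a was named after its values were seen. Cyp2c29 read 4.46 and 4.63 in KO, 5.99 and 7.998 in HET and 7.88 and 6.91 in WT. The KO arrays were below all others, and the KO minus WT difference of -2.85 (SE 0.65) had an adjusted p = 0.602. With KO raised to the filter level this is at least 1.82-fold lower in KO, and 1.16-fold for Cyp2a5 below, so the 2 fitted differences are not measured folds. Cyp2e1 read 7.36 and 8.09 in KO, 8.74 and 9.78 in HET and 10.16 and 9.64 in WT, with KO lowest and HET and WT overlapping (KO minus WT -2.18, SE 0.78, adjusted p = 0.9995). Cyp2a5 read 4.05 and 5.42 in KO, 5.48 and 7.44 in HET and 7.39 and 6.12 in WT (KO minus WT -2.01, SE 0.75, adjusted p = 0.9995), and its KO arrays were again the lowest. Over the 57 members the median KO minus WT difference was 0.02, against 0.01 over all genes, and the median absolute difference was 0.212, against 0.148.

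Liver genes moved with those values. The mean of the hepatocyte list, 5 genes on the arrays, was 7.18 and 6.73 in stomach KO, 8.65 and 9.82 in HET and 10.74 and 8.53 in WT. In KO 3 and 4 of its 5 genes lay below the filter level, in HET 1 and 0, and in WT 0 and 1. Albumin (Alb) read 7.26 and 6.53 in KO, 8.39 and 11.66 in HET and 12.42 and 9.36 in WT, while Ttr stayed between 12.43 and 12.68 on all stomach arrays. Cyp3a11 was highest on WT 1 (9.51) and HET 2 (9.19), the same arrays as Alb. Other lists moved on the same arrays. The adipocyte list averaged 8.41 and 8.40 in KO, against 8.69 to 9.45 on the other stomach arrays, with 1 of its 4 genes below the filter level on each KO array and none elsewhere in stomach. The proliferating cell list averaged 8.38 and 8.31 in KO, against 7.68 to 8.11, and the squamous forestomach list is given with Cyp2f2 below. The part of these lists in the P450 differences was not tested. Both stomach KO arrays also carry the RMA note and no other stomach array does, so the note and the KO genotype cannot be told apart there.

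**Figure D4:**
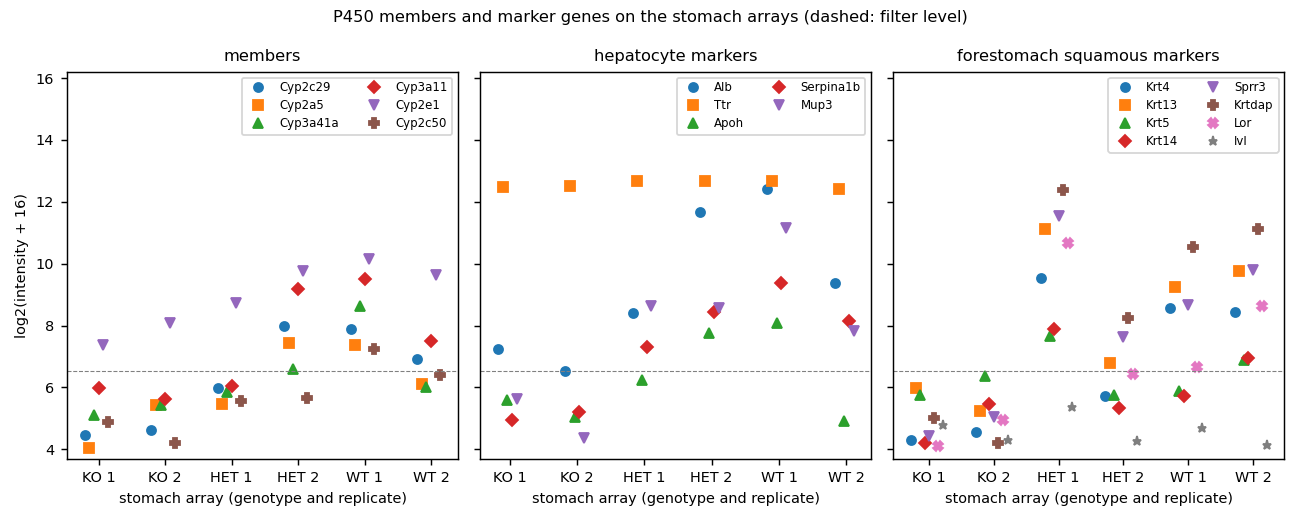
Levels on the 6 stomach arrays, as log2(intensity + 16), of 6 P450 members (left), hepatocyte markers (middle) and markers of squamous forestomach epithelium (right), with the filter level of 6.53 dashed. Cyp2c29 lies at 4.46 and 4.63 on the KO arrays and between 5.99 and 7.998 on the others, and Alb at 7.26 and 6.53 on KO and between 8.39 and 12.42 on the others.

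The other stomach comparisons gave no call either. In HET against WT limma called 0 of 57 members (0% of all genes), and no member had an unadjusted p under 0.05, against 2.20% of all genes. The 3 with the smallest p were Aldh3a1 (0.61), Aldh16a1 (-0.45) and Cyp39a1 (0.48), each with adjusted p = 1. Aldh3a1 read 12.09 and 12.19 in KO, 12.04 and 12.18 in HET and 11.31 and 11.68 in WT, so the WT arrays were the lowest. In KO against HET, again 0 of 57 were called (0.0127% of all genes) and 2 had an unadjusted p under 0.05 (3.51%, against 1.86% of all genes). Those were Cyp2c29 (-2.45) and Cyp2a5 (-1.72), and Cyp2e1 followed with -1.54, all with adjusted p = 0.9999. The KO comparisons share the KO arrays, and the WT comparisons the WT arrays.

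In the colon, KO against WT gave 0 calls among 56 members, where limma called 0.0505% of 7913 genes, and 7 members (12.5%) had an unadjusted p under 0.05, against 11.2% of all genes. Aldh4a1, an enzyme of proline breakdown, read 7.01 and 6.02 in KO, 6.68 and 6.87 in HET and 7.42 and 7.79 in WT (KO minus WT -1.09, SE 0.30, adjusted p = 0.318). Cyp39a1 read 8.72 and 8.88 in KO, 8.52 and 8.20 in HET and 8.25 and 7.25 in WT, the lowest on colon WT 2 (KO minus WT 1.05, SE 0.30, adjusted p = 0.318). For both genes the KO and WT arrays were apart. Over the 56 members the median difference was -0.10, against 0.06 over all genes, and the median absolute difference was 0.494, against 0.230. Cyp2e1 read 9.63 and 6.65 in KO, 11.05 and 11.06 in HET and 10.46 and 11.02 in WT (KO minus WT -2.60, SE 0.78, adjusted p = 0.342). With colon WT 2 as the only WT array, when colon WT 1 was left out, 17 members were called, beside 12.3% of all genes, and without colon WT 2 none was (0.307% of all genes). Leaving out colon KO 1 gave 4 calls (0.434% of all genes), among them Cyp2e1 (-4.08) and Aldh4a1 (-1.58).

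Colon HET against WT also gave 0 calls of 56 (0.0253% of all genes), and 5 members (8.93%, against 9.62% of all genes) had an unadjusted p under 0.05. Aldh16a1 had -0.71, Aldh18a1, an enzyme of proline synthesis, -0.90 and Aldh4a1 -0.83, with adjusted p = 0.471, 0.505 and 0.511. Without colon WT 1 the count was 16, beside 13.6% of all genes. Colon KO against HET gave 0 of 56 (0.0253% of all genes), with 1 member (1.79%, against 4.11% of all genes) at an unadjusted p under 0.05, Cyp2e1 (-2.92, SE 0.78, adjusted p = 0.998). Aldh1a1 (-0.70) and Cyp4b1 (-1.999) followed. Without colon KO 2 these 2 values were 0.01 and 0.07, and without colon KO 1 they were -1.42 and -4.07 and both were called, so they rest on colon KO 2.

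Colon KO 2 read low on a group of these enzymes. On 10 of 56 tested members (17.9%) it lay over 1 log2 unit below the other 5 colon arrays and on none above, beside 1.63% of all genes outside that range in either direction. They were Cyp4b1, Cyp2e1, Cyp2d26, Ugt2b5, Cyp4f14, Gsta2, Gsta4, Cyp3a13, Aldh1a1 and Aldh1b1, which act in several different pathways. Cyp4b1 read 10.65 and 6.51 in KO, 10.66 and 10.50 in HET and 9.62 and 10.40 in WT, and Aldh1a1 read 13.16 and 11.74 in KO, 13.20 and 13.10 in HET and 13.08 and 12.76 in WT. On that array the adipocyte list averaged 7.37, against 9.50 to 10.42 on the other colon arrays, with 2 of its 4 genes below the filter level there. The exocrine pancreas list averaged 7.56, against 5.39 to 5.79, the proliferating cell list 9.82, against 8.44 to 9.02, and the B and plasma cell list 9.01, against 8.01 to 8.64. The small intestine list was lowest there, at 5.65 against 6.33 to 7.04 on the other colon arrays but colon WT 2. The part of these lists in the member values was not tested.

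**Figure D5:**
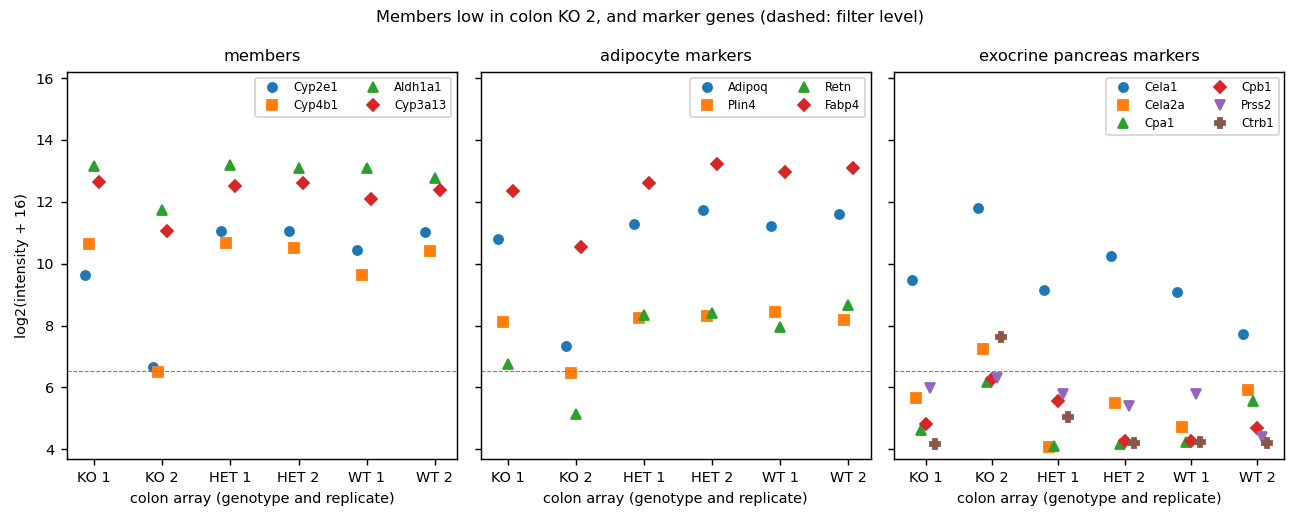
Levels on the 6 colon arrays, as log2(intensity + 16), of 4 members low on colon KO 2 (left), adipocyte markers (middle) and exocrine pancreas markers (right), with the filter level of 6.53 dashed. Cyp2e1 and Cyp4b1 read 6.65 and 6.51 on colon KO 2, and the adipocyte gene Adipoq 7.34, each below the other 5 arrays.

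Whether a genotype difference was the same in both tissues was tested as an interaction. For KO against WT, limma called 0 of 66 members (0.0238% of 8393 genes), and 2 (3.03%, against 4.63% of all genes) had an unadjusted p under 0.05. Cyp2f2 read 4.60 and 4.17 in stomach KO, 7.22 and 6.30 in HET and 6.20 and 6.10 in WT, and 6.86 and 6.79 in colon KO, 6.84 and 6.85 in HET and 6.91 and 5.53 in WT. The stomach KO arrays were the lowest of all 12, all 4 stomach KO and WT arrays lay below the filter level, and the stomach minus colon difference of the KO effect was -2.38 (SE 0.66, adjusted p = 0.888). Without colon WT 1, which leaves a single colon WT array, it was -3.05 (adjusted p = 0.0182). The squamous forestomach list averaged 4.82 and 5.01 in stomach KO, 9.52 and 6.27 in HET and 7.49 and 8.21 in WT, with 8 of its 8 genes below the filter level on both KO arrays, and its part in the Cyp2f2 values was not tested. Cyp2c29 (-2.85) and Cyp1b1 (1.59) followed with the same adjusted p. For KO against HET 0 of 66 were called (0% of all genes), and 2 (3.03%, against 2.18% of all genes) had an unadjusted p under 0.05. Cyp2f2 had -2.36, Cyp2c29 -2.64 and Gstt1 0.65, with adjusted p = 0.9999.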

How the data were processed

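Expression was measured on 12 arrays, 2 in each of 6 groups taken from the sample labels. The deposited values are linear intensities per probe set, scaled alike (2% trimmed mean of each array between 500.07 and 500.09). Per the submitters' processing notes, MAS5 was used for 9 arrays and RMA for 3 (both stomach KO arrays and colon WT 1), and how the notes differ in practice is not given in the sources used here. From the deposited intensities log2(intensity + 16) was computed and quantile-normalized over the 12 arrays. Of 22716 probe sets 90 controls were left out, and of the rest 18003 named 1 gene, 287 several and 4336 none. The 110 members were covered by 140 probe sets, and 23 members had several; 11 members were read by _a_at, 9 by _s_at and 1 by _x_at sets, which can bind related transcripts.

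The test was limma 3.58.1 (R 4.3.3, two-sided) on the 6 group means, with an intensity trend in eBayes and 6 residual degrees of freedom. Benjamini-Hochberg adjustment ran over all genes tested, at a threshold of 0.05, and the pipeline was tested on simulated data. The members and lists were chosen with earlier results of these data known. Named were up to 4 members per family and direction with the largest called, non-overlapping tissue differences, the 3 smallest p in genotype comparisons, and 4 partner genes per direction. Other members named in the text were chosen after their values were seen. Replicate numbers did not pair the arrays by the rule that every pair correlates over 0.1: deviations of same-numbered arrays correlated between -0.37 and 0.31 across the genotypes of a tissue, and at 0.12 in KO, 0.06 in HET and 0.09 in WT between stomach and colon. Promoter sequences came from a RefSeq table; whole-genome and protein sequences were not used here, and 1 gene that fits the symbol pattern is not reported here.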

Additional observations from a re-analysis of the deposited data

How the results depend on the processing

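The count of 46 members that differed between stomach and colon ran between 38 and 56 over 24 alternatives. These were no quantile normalization, offsets of 1 and 64, no filter or a stricter one, no intensity trend, every probe set, the HET and KO genotypes alone, no RMA-note arrays, each array left out in turn, and colon WT 2 and colon KO 2 left out together, which was added after the data were seen. With genotype and number as a block across the tissues, also added then, the count was 44, with 20 higher and 24 lower. With the replicate number within a tissue as a block it was 45 (46.9% of all genes), with 21 higher and 24 lower in stomach. All genotype comparisons then stayed at 0 member calls. Leaving out single arrays gave 15 to 35 members in KO, 13 to 38 in HET and 14 to 36 in WT for the tissue difference, 0 to 17 for colon KO against WT, 0 to 16 for colon HET against WT, 0 to 4 for colon KO against HET and 0 to 11 for the KO against WT interaction. The counts of 17, 16 and 11 came without colon WT 1 and the count of 4 without colon KO 1; the arrays left are then a single one of their group, assumed to vary like the others. The stomach genotype comparisons had 0 calls under all settings run. Of the values of 60 named results under the alternatives, 1327 kept direction and side of the threshold, 16 lost the call, 7 gained it and 3 changed sign. The sign changes were Cyp2f2 between tissues without the RMA-note arrays (0.27), and Aldh1a1 (0.0076) and Cyp4b1 (0.072) in colon KO against HET without colon KO 2, against -1.42 and -4.07 without colon KO 1; the cause was not tested. Signal near the filter level limits the dim members.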
